A study of Rattus norvegicus with 36 samples.

Results

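Fn1, listed in the count table as ENSRNOG00000014288, encodes fibronectin and was taken as 1 gene of the 32883 in that table. The ID was given as rat Fn1. The rule that picks it uses no measured value, but the gene was chosen with earlier results of these data known. Its level was followed in rat precision-cut lung slices, thin sections of living lung kept in culture, in a model made to evaluate anti-fibrotic drugs. There were 36 RNA-seq libraries in 6 groups of 6. Slices with TGFb and Pirf, with TGFb and Nint, with TGFb and Sora, with TGFb alone and without treatment were taken at the labelled time 72, and further untreated slices at the labelled time 0. The labels state no unit of time, no dose, and neither the strain, age nor sex of the rats. Pirf, Nint and Sora were read as pirfenidone, nintedanib and sorafenib. The labels do not tell whether replicates came from different animals, so p-values measure the spread between these slice libraries, which may be technical.

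Fibronectin is a secreted glycoprotein that cells assemble into fibrils in the extracellular matrix. It binds integrins on the cell surface through an RGD sequence and also binds collagens and heparin, and its fibrils act as a scaffold on which collagen is laid down. Liver cells secrete a soluble plasma form, while fibroblasts and other tissue cells make cellular forms that differ by alternative splicing. TGFb is a classical inducer of the gene in fibroblasts, and fibronectin is widely read out as a marker of matrix production in lung fibrosis. Each value here is a count over the whole gene, so the splice forms, the protein and the assembled matrix were not measured.

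Fn1 was high in every slice group that received TGFb, lower in untreated slices at 72 and lowest at time 0. No drug brought Fn1 near the untreated level, and all 18 libraries with TGFb and a drug lay above all 6 untreated libraries at 72. Levels are CPM (counts scaled to library size) with TMM factors, the trimmed mean of M values, which correct for differences in library composition. They are called normalized counts below.

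With TGFb and Pirf, Fn1 had a lowest value of 1969, a median of 2550 and a highest value of 2834 normalized counts. With TGFb and Nint the lowest, median and highest values were 2546, 3279 and 3529. With TGFb and Sora they were 2206, 2701 and 3154. The ranges of the drug groups overlapped one another. With TGFb alone the lowest value was 2423, the median 2876 and the highest 3817, a range that overlapped those of all 3 drug groups. In untreated slices at 72 the values ran from 815 through a median of 925 to 983 normalized counts. In untreated slices at 0 they ran from 174 through a median of 254 to 944. The highest time-0 library, replicate 3, was inside the range of untreated slices at 72, and the other 5 lay below that range.

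**Figure D1:**
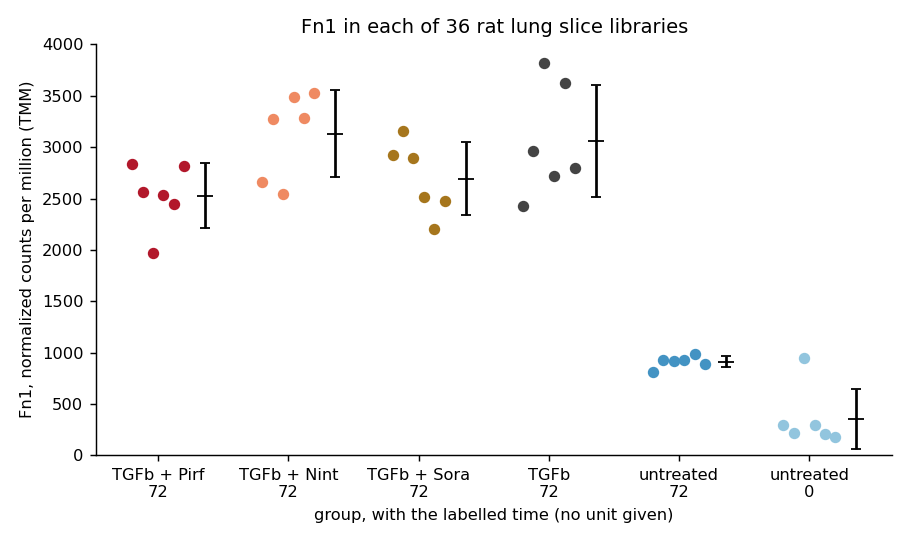
Fn1 in normalized counts (CPM) (vertical axis, linear from 0) in each of the 36 libraries by group; points are libraries in order of replicate number, and the bars beside them show the mean and SD of 6. The 24 libraries with TGFb sit between 1969 and 3817, all above the untreated libraries at 72 (815 to 983), and 1 time-0 library sits at 944 while the other 5 are between 174 and 298.

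In falling order of their means, Fn1 stood at 3130.0 ± 423 normalized counts with TGFb and Nint, 3057 ± 546 with TGFb alone, 2695 ± 353 with TGFb and Sora, 2528 ± 316 with TGFb and Pirf, 911 ± 55.5 in untreated slices at 72 and 355 ± 293 in untreated slices at 0 (SD, n = 6 each). Among the 4 groups with TGFb, no neighbours in this order differed beyond their spread. Each group with TGFb differed from untreated slices at 72, and these from untreated slices at 0, by the tests given below.

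Counting error alone was small beside these spreads. Raw Fn1 counts ran from 3134 to 102025 per library, which gives a counting error of 0.313% to 1.79%. The coefficient of variation between libraries was 12.5% with TGFb and Pirf, 13.5% with TGFb and Nint, 13.1% with TGFb and Sora, and 17.9% with TGFb alone. Untreated slices at 72 were the most even group, at 6.09%. Those at 0 reached 82.6% with all 6 libraries and 23.6% without replicate 3. Total counts per library ran from 15886958 to 32933012. TMM factors were 1.06 to 1.08 with TGFb and Pirf and 0.894 to 1.02 with TGFb alone, without overlap, so the scaling bears on comparisons with Pirf.

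Culture without any added factor was examined first, by setting untreated slices at 72 against those at 0. Fn1 rose, with 911 ± 55.5 normalized counts at 72 against 355 ± 293 at 0 (SD, n = 6 each). The log2 fold change was 1.36 (SE 0.25, adjusted p = 9.65e-06, edgeR's quasi-likelihood test), a 2.57-fold difference with a 95% interval of 1.81 to 3.64. In this comparison 73.2% of the 15644 tested genes were called at an adjusted p under 0.05, so a call alone set Fn1 apart little. The groups overlapped through the single high time-0 library, whereas 49.3% of tested genes had groups that did not overlap. Of all tested genes, 9.51% had a higher log2 fold change than Fn1. In the exact two-sided permutation test of 6 against 6 libraries, p was 0.013 and 0.0286 after adjustment over the 11 comparisons. Since the slices are mixed tissue, more fibronectin-producing cells and more Fn1 RNA per cell cannot be told apart here, nor in any comparison that follows.

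The time-0 libraries were then set on the path to the untreated state at 72, since replicate 3 stood apart. For each library, genes that rose or fell at least 2-fold over culture were found without it. Its position was taken as a percentage of the log2 distance between the other 5 and untreated slices at 72. Replicate 3 was 30.3% of the way for the median of 2415 risen genes and 13.6% for 2045 fallen genes. For the other 5 libraries, these medians lay between -8.50% and 9.14% for risen genes and between -7.06% and 9.21% for fallen genes. Fn1 in replicate 3 was at 102.7% of its own distance, and between -60.8% and 1.85% in the other 5. For each of those 5 the reference mean includes replicate 3, which lowers their positions. They are therefore not directly comparable with the position of replicate 3. Set against the other 5, replicate 3 lay towards untreated slices at 72 for both medians and not in Fn1 alone. For fallen genes its 13.6% was near the 9.21% of replicate 1. Positions with references free of replicate 3 were not computed, and what set this library apart was not tested.

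**Figure D2:**
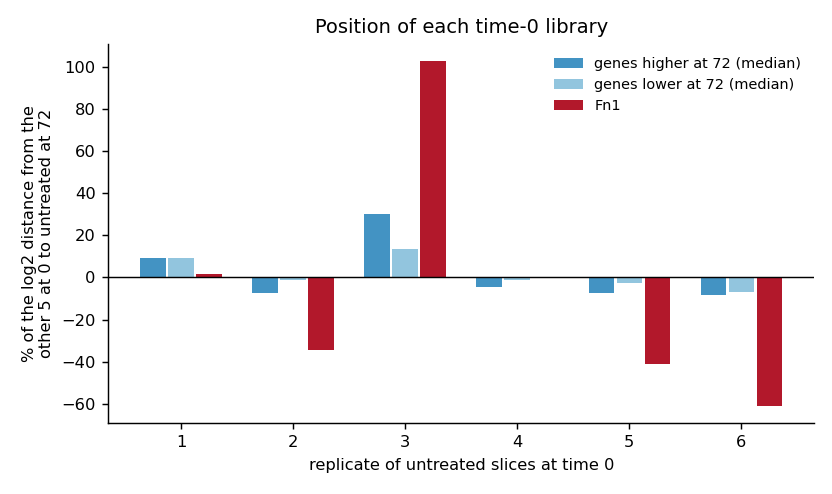
Position of each of the 6 time-0 libraries (horizontal axis, replicate number) as a percentage of the log2 distance from the other 5 time-0 libraries to untreated slices at 72, as the median over genes higher or lower at 72 and for Fn1. Replicate 3 is at 30.3%, 13.6% and 102.7% for these, and no bar of another replicate exceeds 9.21%. The reference mean of every other replicate includes replicate 3, which lowers those bars.

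Without replicate 3 at time 0, Fn1 stood at 237 ± 56.0 normalized counts (SD, n = 5) and the log2 fold change over culture was 1.95 (SE 0.14, adjusted p = 2.75e-14, edgeR). This library also enlarged the error of every other Fn1 comparison in the fit of all 36 libraries, because 1 dispersion is shared by the groups. For TGFb alone against untreated slices at 72, the SE was 0.25 with all libraries and 0.13 without replicate 3 at time 0. The biological coefficient of variation that edgeR assigned to Fn1 was 29.1% with all libraries and 15.3% without that library. This coefficient describes the spread and does not itself enter the quasi-likelihood test. For this reason the comparisons at 72 are given from the fit of 36 libraries and also from a fit of the 30 libraries at 72 alone, a choice made after the values were seen.

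The response to TGFb was read from slices with TGFb alone and untreated slices at 72. Fn1 rose 3.35-fold, with 3057 ± 546 normalized counts in slices with TGFb against 911 ± 55.5 in untreated slices (SD, n = 6 each). The log2 fold change was 1.75 (SE 0.25, 95% interval 1.24 to 2.25, adjusted p = 2.23e-06, edgeR). The lowest TGFb library, at 2423, was more than 2-fold above the highest untreated one, at 983. TGFb changed 26.4% of tested genes, and the groups did not overlap in 13.6% of them. Fn1 ranked 190 of 15644 by log2 fold change, so 1.21% of tested genes rose more. The exact two-sided permutation p was 0.0022, the smallest that 6 against 6 libraries allow, and 0.00595 after adjustment. In the fit of 30 libraries the log2 fold change was 1.75 with a smaller error (SE 0.11, adjusted p = 1.46e-12, edgeR).

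Pirf, an anti-fibrotic drug when read as pirfenidone, was compared with TGFb alone. Fn1 stood at 2528 ± 316 normalized counts with TGFb and Pirf, against 3057 ± 546 with TGFb alone, a difference of -17.3% with a 95% interval of -41.3% to 16.4%. It was not called in the fit of 36 libraries (log2 fold change -0.27, SE 0.24, adjusted p = 0.356, edgeR), where 51.5% of tested genes were. In the fit of the 30 libraries at 72 the same difference was called (log2 fold change -0.27, SE 0.11, adjusted p = 0.0337, edgeR), with an interval of -29.1% to -3.50%, among 55.7% of the genes tested there. It was not called when only time-0 replicate 3 was left out (-0.27, adjusted p = 0.0706, edgeR) or in a fit of its 12 libraries alone (-0.28, adjusted p = 0.0697). The call in the 30 libraries was lost in 4 of 12 fits that each left out 1 library, namely TGFb-alone replicate 3 or 5 or Pirf replicate 3 or 5, with adjusted p between 0.0568 and 0.1. On total counts without scaling factors the difference shrank to a log2 fold change of -0.13 in the same 30 libraries (adjusted p = 0.394, edgeR). The exact two-sided permutation test gave p = 0.0801, and 0.126 after adjustment. Whether a fall of Fn1 with Pirf was called, and its size, thus depended on which libraries and scaling entered the fit. The estimated log2 fold change stayed negative, between -0.33 and -0.19 over single left-out libraries and between -0.28 and -0.13 in other settings. Of the 6 Pirf libraries, 5 lay inside the range of TGFb alone.

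Nint, a tyrosine kinase inhibitor when read as nintedanib, left Fn1 at 3130.0 ± 423 normalized counts, against 3057 ± 546 with TGFb alone (SD, n = 6 each). The difference was 2.40%, with a 95% interval of -27.3% to 44.1% (log2 fold change 0.03, SE 0.24, adjusted p = 0.985, edgeR). In the fit of 30 libraries the interval narrowed to -12.2% to 19.4% (adjusted p = 0.941). Differences below -12.2% lay outside that interval, while smaller falls could not be detected with this spread. Nint changed 3.09% of tested genes against TGFb alone. The exact two-sided permutation p for Fn1 was 0.747 before and after adjustment.

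Sora, a kinase inhibitor when read as sorafenib, gave 2695 ± 353 normalized counts, against 3057 ± 546 with TGFb alone (SD, n = 6 each). The difference was -11.8%, with a 95% interval of -37.4% to 24.1% (log2 fold change -0.18, SE 0.24, adjusted p = 0.65, edgeR). In the fit of 30 libraries the interval was -24.4% to 2.85% (adjusted p = 0.242). All 6 Sora libraries lay below the 2 highest TGFb-alone libraries, and 5 of the 6 lay inside the range of that group. Sora changed 15.4% of tested genes, and Fn1 was not among them. The exact two-sided permutation p was 0.216, and 0.265 after adjustment.

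**Figure D3:**
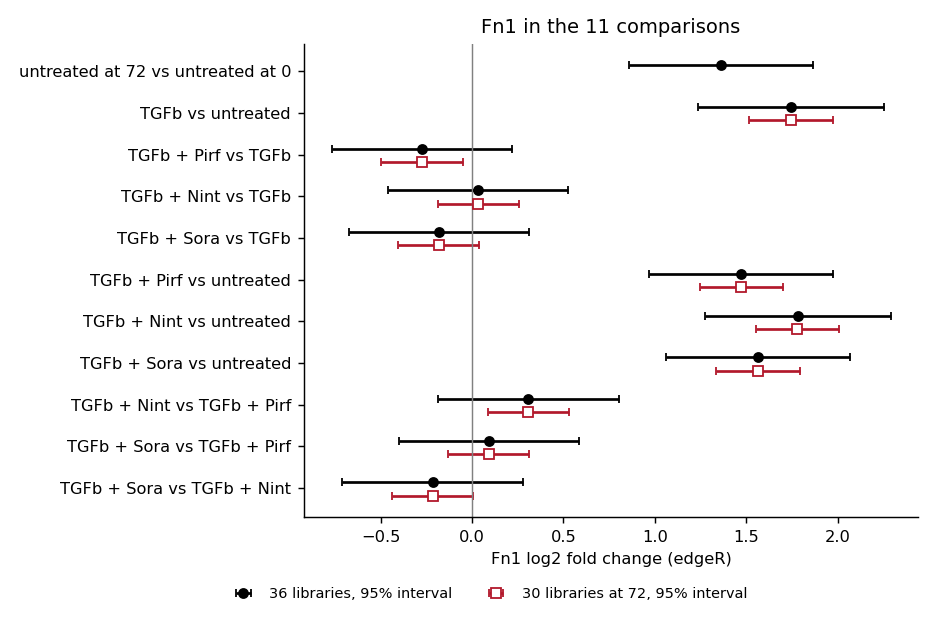
Fn1 log2 fold change (horizontal axis) in the 11 comparisons, with 95% intervals, from the fit of all 36 libraries (filled circles) and of the 30 libraries at 72 (open squares). The 4 comparisons with untreated slices at 72 as the second group lie between 1.47 and 1.78 in both fits, and the drug comparisons with TGFb alone lie between -0.27 and 0.03.

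Each drug group was also set against untreated slices at 72, to ask how much of the Fn1 rise was still present. With TGFb and Pirf, Fn1 was 2.77-fold higher than in untreated slices (log2 fold change 1.47, SE 0.25, adjusted p = 9.33e-06, edgeR). With TGFb and Nint it was 3.43-fold higher (1.78, SE 0.25, adjusted p = 1.64e-06). With TGFb and Sora it was 2.96-fold higher (1.56, SE 0.25, adjusted p = 2.28e-05). In the fit of 30 libraries the log2 fold changes were 1.47, 1.78 and 1.56 for Pirf, Nint and Sora, each with SE 0.11. The 3 comparisons share the untreated libraries. Calls were made for 52% of tested genes with Pirf, 26.4% with Nint and 25% with Sora, and groups did not overlap for 33.9%, 16.1% and 9.13%. Fn1 was among the genes whose groups did not overlap in all 3, and the exact two-sided permutation p was 0.0022 in each (0.00595 after adjustment). By log2 fold change it ranked 359 with Pirf, 140 with Nint and 148 with Sora out of 15644.

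As a percentage of the rise between the mean of untreated slices and the mean of TGFb alone, the Pirf libraries held 49.3% to 89.6% of the Fn1 rise, with a mean of 75.3% ± 14.7 (SD, n = 6). The Nint libraries held 76.2% to 122.0%, with a mean of 103.4% ± 19.7. The Sora libraries held 60.3% to 104.5%, with a mean of 83.1% ± 16.5. These SDs leave out the spread of the TGFb-alone libraries, which is the largest of the groups at 72 and is shared by the 3 percentages.

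The drugs were compared directly, with no dose stated in the labels. Fn1 was 23.8% higher with Nint than with Pirf, with a 95% interval of -12.1% to 74.4% (log2 fold change 0.31, SE 0.24, adjusted p = 0.288, edgeR). It was not called, in a comparison where 54.6% of genes were. In the fit of 30 libraries it was called (0.31, SE 0.11, adjusted p = 0.0166, edgeR), with an interval of 6.12% to 44.4%, among 58.6% of genes. That call held in 11 of 12 fits that each left out 1 library, and without Pirf replicate 3 the adjusted p was 0.0535. The difference was also called when only time-0 replicate 3 was left out (0.31, adjusted p = 0.0325, edgeR), a choice made after the values were seen. On total counts in the 30 libraries the log2 fold change was 0.16 (adjusted p = 0.275, edgeR). The exact two-sided permutation test of Fn1 gave p = 0.0281, and 0.0516 after adjustment.

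Fn1 with Sora was 6.61% above Fn1 with Pirf, with a 95% interval of -24.3% to 50.1% (log2 fold change 0.09, SE 0.24, adjusted p = 0.785, edgeR), where 42.1% of genes were called. Relative to Nint, Fn1 with Sora differed by -13.9%, with an interval of -38.8% to 21.2% (log2 fold change -0.22, SE 0.24, adjusted p = 0.594), where 11% of genes were called. In the fit of 30 libraries the interval was -8.61% to 24.3% for Sora against Pirf (adjusted p = 0.509, edgeR). For Sora against Nint it was -26.2% to 0.433% (adjusted p = 0.167, edgeR). Neither difference was called in either fit. The exact two-sided permutation p was 0.426 for Sora against Pirf and 0.0931 for Sora against Nint, and 0.469 and 0.128 after adjustment.

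The spread of Fn1 within groups was set beside that of the 100 genes nearest to it in mean log2 CPM. The pooled SD of log2 CPM within groups was 0.40 for Fn1 and 0.16 for the median of these genes, and 94% of them had a smaller SD. Without time-0 replicate 3 the SD was 0.22 for Fn1 and 0.14 for their median, and 76% had a smaller SD. Both are descriptions of these libraries.

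The genes most like Fn1 were sought by Pearson's r of log2 CPM over the 36 libraries, among 12773 tested genes with a mean normalized count of at least 50 at the mean library size. Of these, 347 had r above 0.9 and 144 had r below -0.9, and the median was 0.10. The points share libraries and group differences, so r mostly follows the group means. The IDs below were picked by this r over the same libraries that the tests use. Their changes with TGFb therefore follow largely from that choice, and the p-values given for them are descriptions and no separate evidence. Neither the tables nor the reference pair these IDs with gene names, so no role is given for them.

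ENSRNOG00000052354 had the highest r, 0.979 over 36 libraries and 0.976 over the 30 at 72. It averaged 85.2 ± 7.27 normalized counts (CPM) with TGFb and Pirf, 96.4 ± 7.86 with TGFb and Nint, 94.5 ± 5.06 with TGFb and Sora, 91.1 ± 10.6 with TGFb alone, 36.6 ± 4.05 in untreated slices at 72 and 21.5 ± 8.15 at 0 (SD, n = 6 each). TGFb raised it by a log2 fold change of 1.32 (adjusted p = 7.17e-09, edgeR), and it passed the test in none of the 3 drug comparisons with TGFb alone (adjusted p = 0.569, 0.914 and 0.826 for Pirf, Nint and Sora).

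ENSRNOG00000049437 had the second highest r, 0.978 over 36 libraries and 0.922 over the 30 at 72. It also had the highest r when each library was taken as its deviation from its group mean, 0.922, but this rank rested on time-0 replicate 3. Without that library its r was 0.722, and the highest r of any gene was 0.856. It averaged 35.05 ± 7.40 with TGFb and Pirf, 37.7 ± 7.23 with TGFb and Nint, 26.5 ± 5.20 with TGFb and Sora, 45.5 ± 11.1 with TGFb alone, 13.0 ± 1.18 in untreated slices at 72 and 3.09 ± 3.62 at 0. Its log2 fold change with TGFb was 1.81 (adjusted p = 1.51e-05, edgeR), a direction that the choice by r favoured. With Sora its log2 fold change against TGFb alone was -0.78 and missed the threshold (adjusted p = 0.0561).

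ENSRNOG00000036604 had the lowest r, -0.960. It averaged 73.7 ± 17.3 with TGFb and Pirf, 50.6 ± 13.7 with TGFb and Nint, 71.0 ± 17.8 with TGFb and Sora, 63.0 ± 17.3 with TGFb alone, 184.5 ± 46.2 in untreated slices at 72 and 527 ± 265 at 0. ENSRNOG00000056216 followed with r of -0.957, and TGFb lowered it by a smaller step (log2 fold change -0.55, adjusted p = 0.000157, edgeR) than ENSRNOG00000036604 (-1.55, adjusted p = 2.1e-05). For neither did any drug comparison with TGFb alone pass the test, with adjusted p between 0.364 and 0.983.

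**Figure D4:**
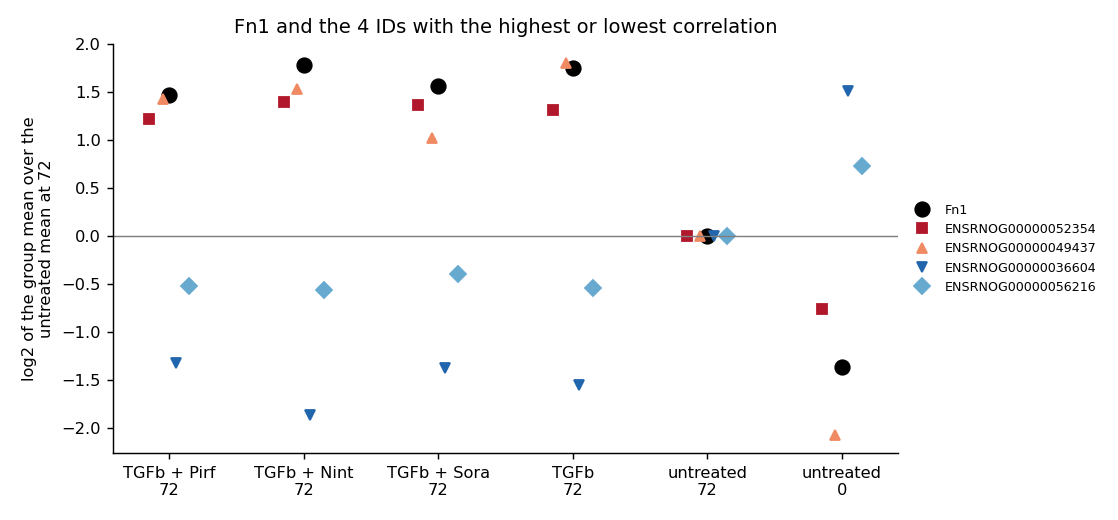
Log2 ratio of each group's mean normalized count to that of untreated slices at 72 (vertical axis) for Fn1 and the 4 IDs with the highest or lowest correlation with it, by group (horizontal axis). Fn1 and the positively correlated pair lie above 0 in all groups with TGFb and below 0 at time 0, and the negatively correlated pair does the reverse. The IDs were picked by that correlation over the same libraries, so these directions follow largely from the choice.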

How the data were processed

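Per the submitters' processing notes, RSEM, edgeR and the build Rnor_6.0 were used; no source at hand names the aligner or annotation release. Libraries were stranded, made after ribosomal RNA removal, per the labels' protocols. The authors deposited expected counts per gene (no scaling) and log2 CPM of genes described as expressed and protein coding. The deposited log2 values for Fn1 differed from those computed here by at most 0.0581.

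The expected counts, rounded to whole numbers, entered edgeR 4.0.16 in R 4.3.3 (filterByExpr, TMM factors, 1 quasi-likelihood fit of 36 libraries with a mean per group), with Benjamini-Hochberg adjustment over the 15644 genes tested and a call at an adjusted p under 0.05. SE is the absolute log2 fold change over the square root of F. The pipeline was tested on simulated data. Alternatives used limma 3.58.1, DESeq2 1.42.0, other scaling, no filter, a replicate term, subsets of libraries and an exact permutation test.

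Fn1 and the gene lists were chosen with earlier results of these data known. The rule for IDs like Fn1 took the 2 highest and 2 lowest r, and the 2 highest r of deviations from group means. The second of the latter, ENSRNOG00000020587, is not in the figure, to keep to 2 IDs per direction. Its r of deviations was 0.916, and 0.769 without time-0 replicate 3. Unlike Fn1 it was not called for TGFb (log2 fold change 0.28, adjusted p = 0.318, edgeR). Of the Ensembl IDs, 0 could be paired with a name, so lists fixed by symbol, including lung and cell type markers, fibronectin receptors and matrix partners, were not run, and the labelled tissue was not checked against markers. The date-like codes in the column names are the same in all libraries, and no batch is labelled. Another code in those names, a letter with digits, differs between libraries. No label gives its meaning, and its relation to Fn1 or to time-0 replicate 3 was not tested.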

Additional observations from a re-analysis of the deposited data

Results flagged for a closer look

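Fn1 in untreated slices at 0, replicate 3, stood at 944 normalized counts, against 174 to 298 in the other 5 libraries of the group. The gap to the nearest other library was 0.839 of the whole range of the group, above Dixon's 95% critical value for 6 samples, and 0.681 of the range on the log2 scale. Of the 6 groups examined, this was the only one past the value, which chance exceeds in about 5% of groups. The same library was 30.3% of the way to untreated slices at 72 for the median of 2415 culture-raised genes and 13.6% for 2045 culture-lowered genes. Replicate 1 was at 9.14% and 9.21%, but its reference mean includes replicate 3, so these positions are not directly comparable. The part of this shift in the Fn1 value was not tested.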

How the results depend on the processing

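Of 274 recomputed Fn1 values over the 11 comparisons, 249 kept their direction and side of the threshold, including every one for culture, for TGFb and for each drug group against untreated slices at 72. With Nint against TGFb alone the sign turned without Nint replicate 6 and without TGFb-alone replicate 1, within a range of -0.024 to 0.123 on the log2 scale over single left-out libraries. Fn1 with Nint against Pirf became called in its 12 libraries alone (log2 fold change 0.31, adjusted p = 0.0158, edgeR) and in the 30 at 72 (0.31). Leaving out only time-0 replicate 3 also gave a call (0.31, adjusted p = 0.0325, edgeR). Over fits that left out 1 library, Fn1 in this comparison ranged between 0.25 and 0.36. With Pirf against TGFb alone it became called in the 30 libraries at 72 (-0.27), but neither without time-0 replicate 3 alone (adjusted p = 0.0706, edgeR) nor in its 12 libraries alone (0.0697), with a range of -0.33 to -0.19 over fits that left out 1 library. Fits with the 30 libraries, or without time-0 replicate 3 for comparisons at 72, were chosen after seeing the data. Over single left-out libraries the culture change ranged between 1.22 and 1.95, the highest without time-0 replicate 3. Total counts in place of TMM moved the median of all genes by 0.15 for Pirf against TGFb alone, -0.15 for Nint against Pirf and 0.10 for Sora against TGFb alone.

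With the replicate number as a block, the log2 fold change was 1.48 for culture, 1.73 for TGFb, -0.24, 0.06 and -0.17 for Pirf, Nint and Sora against TGFb alone, and no Fn1 call changed. Numbers of called genes were 1.01 to 1.19 times those without the block. The numbers were not taken to pair the libraries, since no label says what they mark. Correlations of deviations in 90 same-numbered pairs ran from -0.313 to 0.561, with a median of -0.0043 and 22 over 0.1. Of 36 libraries, 8 correlated best with their own number. Without values for differently numbered pairs beside them, these figures do not decide whether the numbers pair the libraries.

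The number of genes called moved by over 1.5 times in 3 comparisons. For Sora against Nint it was 1720, and 1111, 1096 and 1057 without Nint replicates 1, 3 and 5, 996, 990, 974, 942 and 2819 without Sora replicates 1 to 5, 1133 without a filter and 3416 on total counts in the 30 libraries at 72. For Nint against TGFb alone it was 483, with 309 and 299 without TGFb-alone replicates 2 and 3 and 781 in the 30 libraries at 72. For Sora against TGFb alone it was 2406, and 1423 in the 12 libraries alone. Of the 10 IDs most like Fn1, 3 were among the 10 by Spearman's correlation and 1 among the 10 over the libraries at 72. Depth was not limiting for Fn1, whose counting error was at most 1.79% per library.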
